A study of Mus musculus with 90 samples.

Results

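Study 3 of a mouse melanoma series compared tumours that shrank under an antibody against PD-L1 with tumours given a control antibody. The comparison holds 10 responder tumours and 8 IgG tumours, 18 of the 90 arrays of the series, chosen by the study number and the outcome or treatment named in each label. Every tumour was a subcutaneous melanoma allograft with the genotype label Hgftg;Cdk4R24C/R24C and the strain label B6.cBrd, so the transgene for the growth factor HGF and the mutant cell cycle kinase CDK4 are shared by both groups. Responders received 10 mg/kg of clone 80, an anti-mouse PD-L1 antibody of the form mIgG1 D265A, and were taken after 2 to 12 doses, once the volume had fallen over consecutive measurements. A fall of at least 5% made a tumour a responder. The IgG tumours received a normal IgG at 10 mg/kg (a mouse IgG1 D265A per the series text, which also names 20 mg/kg for both antibodies) and were collected at several times. Study 3 also held 9 non-responders, which grew under the same antibody, and study 2 held 17 responders and 14 IgG tumours; both serve below only to show where the comparison differs. Age and sex are not given in the sources used here.

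PD-L1, encoded by Cd274, is a surface protein that tumour cells and myeloid cells raise when they are exposed to interferon gamma. It binds PD-1 on activated T cells and dampens their signalling, and an antibody against PD-L1 removes that brake. CD8 T cells that are freed in this way kill tumour cells with perforin and granzymes and secrete interferon gamma, which in turn raises antigen presentation, guanylate-binding proteins and chemokines that call in more T cells.

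The arrays hold log2 values of whole tumours, so fewer cells of a type and less RNA per cell cannot be told apart. Values of all 90 arrays lay between 2.19 and 14.84, and array medians of the 18 tumours between 5.78 and 5.88. Of the 7 markers by which the melanoma label was checked, Mitf, Tyrp1, Dct, Pmel, Mlana and Sox10 were bright in every IgG tumour. Tyr, the pigment enzyme tyrosinase, was near the lower end of the scale, with medians of 3.54 in responders and 3.53 in IgG tumours. The tumours of responder replicates 3 and 4 stood apart. The mean of 17 melanocyte genes was 7.08 in responder 3 and 7.02 in responder 4, while the other 8 responders lay between 9.52 and 9.89 and the IgG tumours between 9.66 and 9.90. Responder 3 was rich in B cell (10.39), lymph node (8.40) and adipocyte (10.70) transcripts, and responder 4 in skeletal muscle (13.40) and fibroblast (12.47) transcripts. Muscle means were also raised in responders 5, 7 and 8 (10.75, 8.67 and 8.94) and in IgG 3 (8.48), against 4.97 to 6.58 in the other responders and 5.36 to 5.71 in the other IgG tumours. The gap between 3 prime and 5 prime control probe sets for Actb and Gapdh, which widens as RNA degrades, had a median of 0.19 (0.00 to 0.93) in responders and 0.06 (-0.07 to 0.41) in IgG tumours. The animal numbers of responders and of IgG tumours fall in different blocks, so a difference between cohorts and the effect of response cannot be told apart, while responders and non-responders share 1 block.

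**Figure D1:**
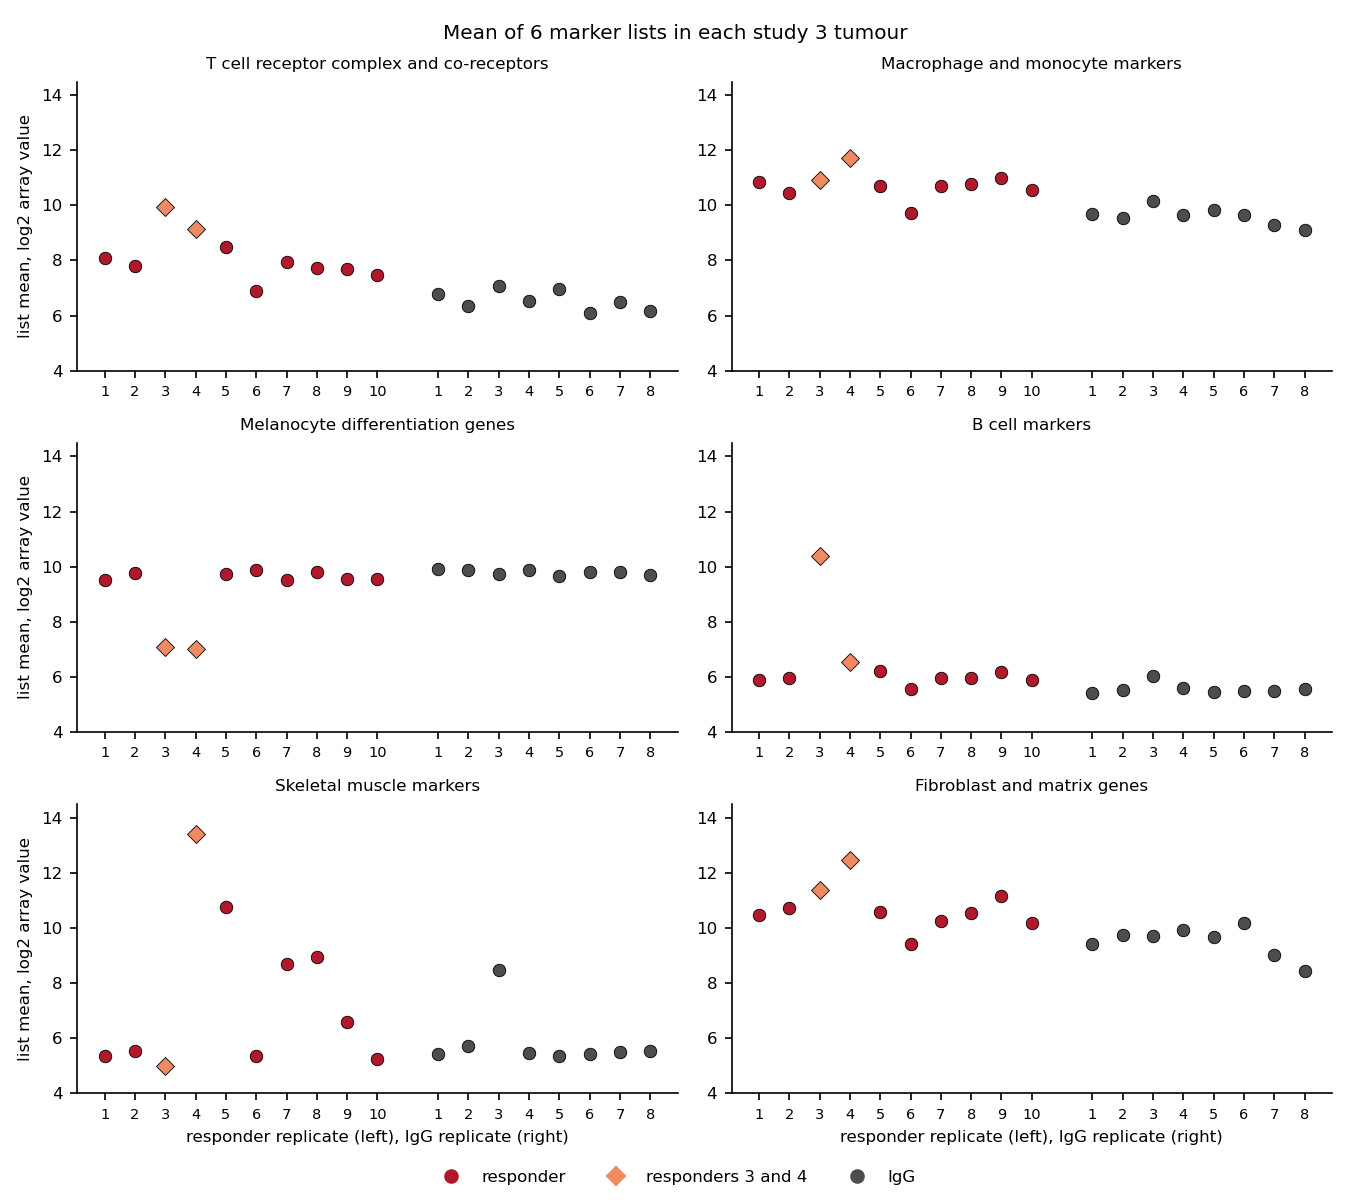
Mean log2 array value of 6 marker lists in each tumour, with the 10 responders on the left and the 8 IgG tumours on the right of each panel. Responders 3 and 4 (diamonds) have melanocyte means of 7.08 and 7.02, responder 3 a B cell mean of 10.39 and responder 4 a muscle mean of 13.40, while T cell means are 6.91 or more in every responder and 7.07 or less in every IgG tumour.

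Regressing tumours carried more T cell, macrophage and interferon gamma transcripts than IgG tumours, and most of the change ran upward. By limma, 841 of 18194 genes (4.62%) were higher and 261 (1.43%) lower in responders at an adjusted p under 0.05, 6.06% in either direction. At least a 2-fold change was found in 479 of the higher and 25 of the lower genes. The lowest adjusted p was 0.00227, and the median log2 fold change over all genes was -0.02. For 78 genes (0.429%) every responder lay above every IgG tumour, and for 28 (0.154%) every responder lay below. Without responders 3 and 4, 1116 genes (6.13%) were higher and 497 (2.73%) lower, and 1035 of the 1102 genes passed with the same sign in both fits. The remaining 67 kept their sign, with adjusted p-values between 0.0503 and 0.084. Taking the 3 prime to 5 prime difference as a covariate left 291 genes higher and 45 lower, centring each array on its median gave 737 higher and 892 lower with the median of all genes at -0.11, and quantile normalization gave 772 higher and 467 lower. Leaving out IgG 7 left 720 genes and leaving out IgG 8 left 647, and 609 of the 1102 passed in all 18 fits without 1 tumour. All 1102 kept their sign in each of those fits. These genes were chosen in the same tumours, so signs kept in any of these refits say little.

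**Figure D2:**
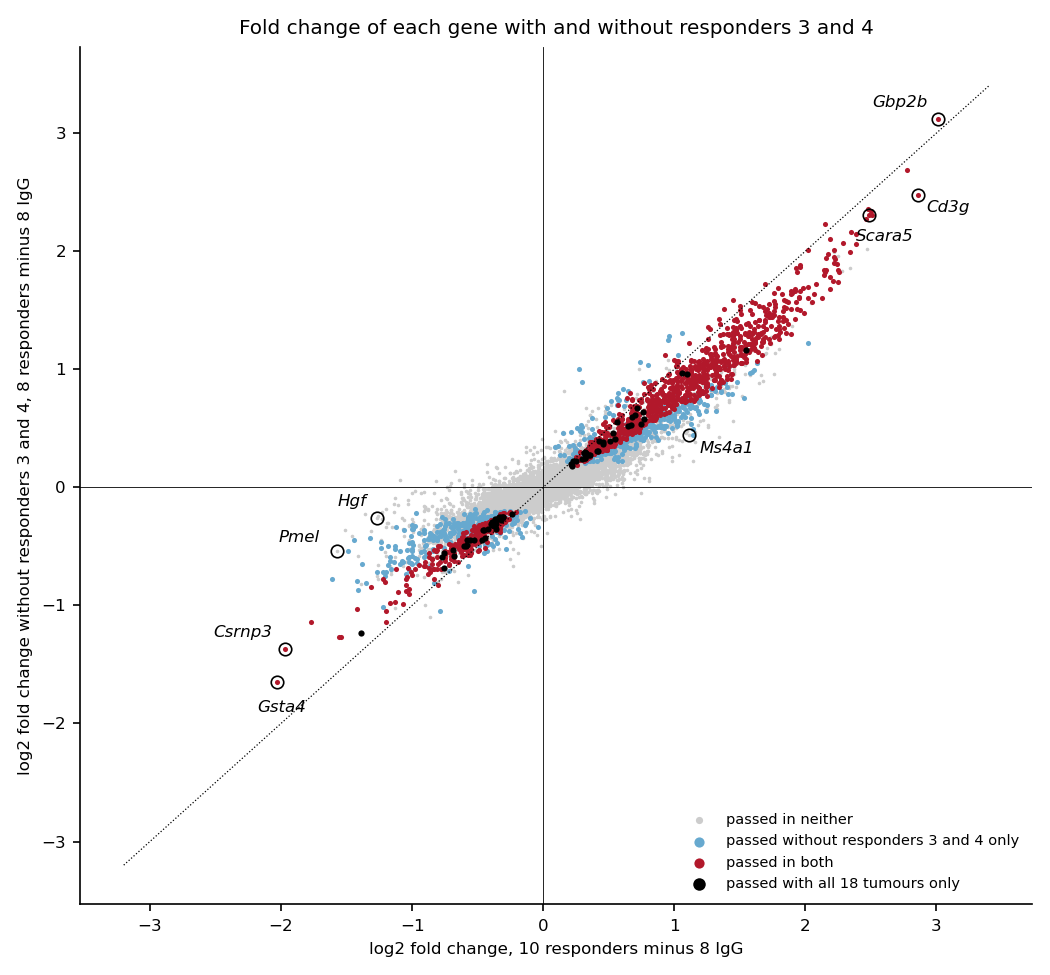
Log2 fold change of each of 18194 genes, 10 responders minus 8 IgG tumours on the x axis and 8 responders minus 8 IgG tumours, without responders 3 and 4, on the y axis; colours show in which fit a gene passed. Gbp2b lies at 3.01 and 3.12, whereas Pmel lies at -1.57 and -0.54 and Hgf at -1.27 and -0.26.

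T cell receptor genes were among those with the largest rises. Of 16 measured receptor complex and co-receptor genes 13 rose (81.2%, against 4.62% of all genes), 0 fell and 3 did not pass. The median log2 fold change was 1.70. Cd3g, a signalling chain of the T cell receptor, measured 7.14, 8.97 and 10.94 in responders (lowest, median and highest), against 4.95, 6.02 and 7.44 in IgG tumours. Responder 6 was the single responder below the highest IgG tumour. The rise was 2.86 ± 0.47 on the log2 scale (SE), 7.25-fold, with a limma adjusted p of 0.00325. Cd3d, another chain of the complex, rose by 2.22 ± 0.39 and Trbv1, a variable segment of the receptor's beta chain, by 2.34 ± 0.45 (1 of its 2 probe sets passed). Cd3e rose by 1.18 ± 0.30 with an adjusted p of 0.0248, but did not pass without IgG 6, IgG 7 or IgG 8 (adjusted p up to 0.0574).

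The CD8 co-receptor moved with the receptor chains and the CD4 co-receptor did not pass. Cd8a measured 6.25, 7.71 and 9.49 in responders, against 4.89, 5.99 and 6.46 in IgG tumours. Again responder 6 alone lay within the IgG range. The rise was 1.95 ± 0.36, 3.86-fold (adjusted p = 0.00419), and 4 of the 5 Cd8a probe sets passed. Cd8b1, the partner chain, rose by 2.15 ± 0.42, 4.44-fold. Cd4 had values of 6.43, 6.68 and 8.34 in responders and 6.35, 6.44 and 6.61 in IgG tumours, a log2 fold change of 0.44 ± 0.21 that did not pass (adjusted p = 0.199). Zap70, a kinase of the receptor, was at 0.14 ± 0.08 (adjusted p = 0.292), although another of its 3 probe sets passed upward. The list had 14 rises and a median of 1.23 without responders 3 and 4, 6 rises with the 3 prime to 5 prime covariate, and 8 without IgG 6.

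Most genes listed as cytotoxic effectors rose. Beside granzymes and perforin the list holds genes of other kinds, such as Ccl5, Tbx21, Klrd1 and Serpinb9. Of its 16 genes 15 rose (93.8%, against 4.62% of all genes) and 0 fell, with a median of 1.68. The mean over these 16 genes ran from 7.81 to 9.67 in responders and from 6.47 to 7.83 in IgG tumours. Gzmb, the granule protease granzyme B, measured 9.40, 10.70 and 11.74 in responders, against 6.73, 8.0 and 9.53 in IgG tumours. All responders but responder 6 exceeded the highest IgG tumour. Its rise was 2.48 ± 0.37, 5.57-fold (adjusted p = 0.00302). Gzmk, a granzyme of CD8 memory cells, rose by 2.39 ± 0.35, and Nkg7, a granule membrane protein, by 2.35 ± 0.36. Prf1, the pore-forming protein perforin, measured 6.89, 7.62 and 8.67 in responders and 5.56, 6.09 and 6.61 in IgG tumours. The groups did not overlap, and the rise of 1.59 ± 0.23 was 3.01-fold, with 1 of its 2 probe sets passing. Tbx21, the T-bet transcription factor that directs cytotoxic and interferon gamma programmes, rose by 2.25 ± 0.41. Gzma rose by 1.58 ± 0.39 (adjusted p = 0.0227, and 0.0579 without IgG 8), and Gzmc was the member that did not pass, at 0.71 ± 0.48. The list kept 15 rises without responders 3 and 4 and had 12 with the 3 prime to 5 prime covariate.

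Natural killer genes were mixed. Klrd1 (CD94), Klrc1 (NKG2A) and Klre1 encode lectin-like receptors of natural killer cells, and the first 2 are also found on activated CD8 T cells. Klrc1 measured 7.47, 8.62 and 9.08 in responders, against 4.29, 6.61 and 7.39 in IgG tumours, a rise of 2.19 ± 0.40. Klrd1 and Klre1 rose by 1.96 ± 0.35 and 1.27 ± 0.24, and for all 3 genes every responder lay above every IgG tumour. Of the 6 natural killer markers 2 rose (Klrc1 and Klre1) and 0 fell, so 33.3% were higher, against 4.62% of all genes. Ncr1, the receptor NKp46 that defines these cells, was at 0.41 ± 0.18 and did not pass (adjusted p = 0.17).

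**Figure D3:**
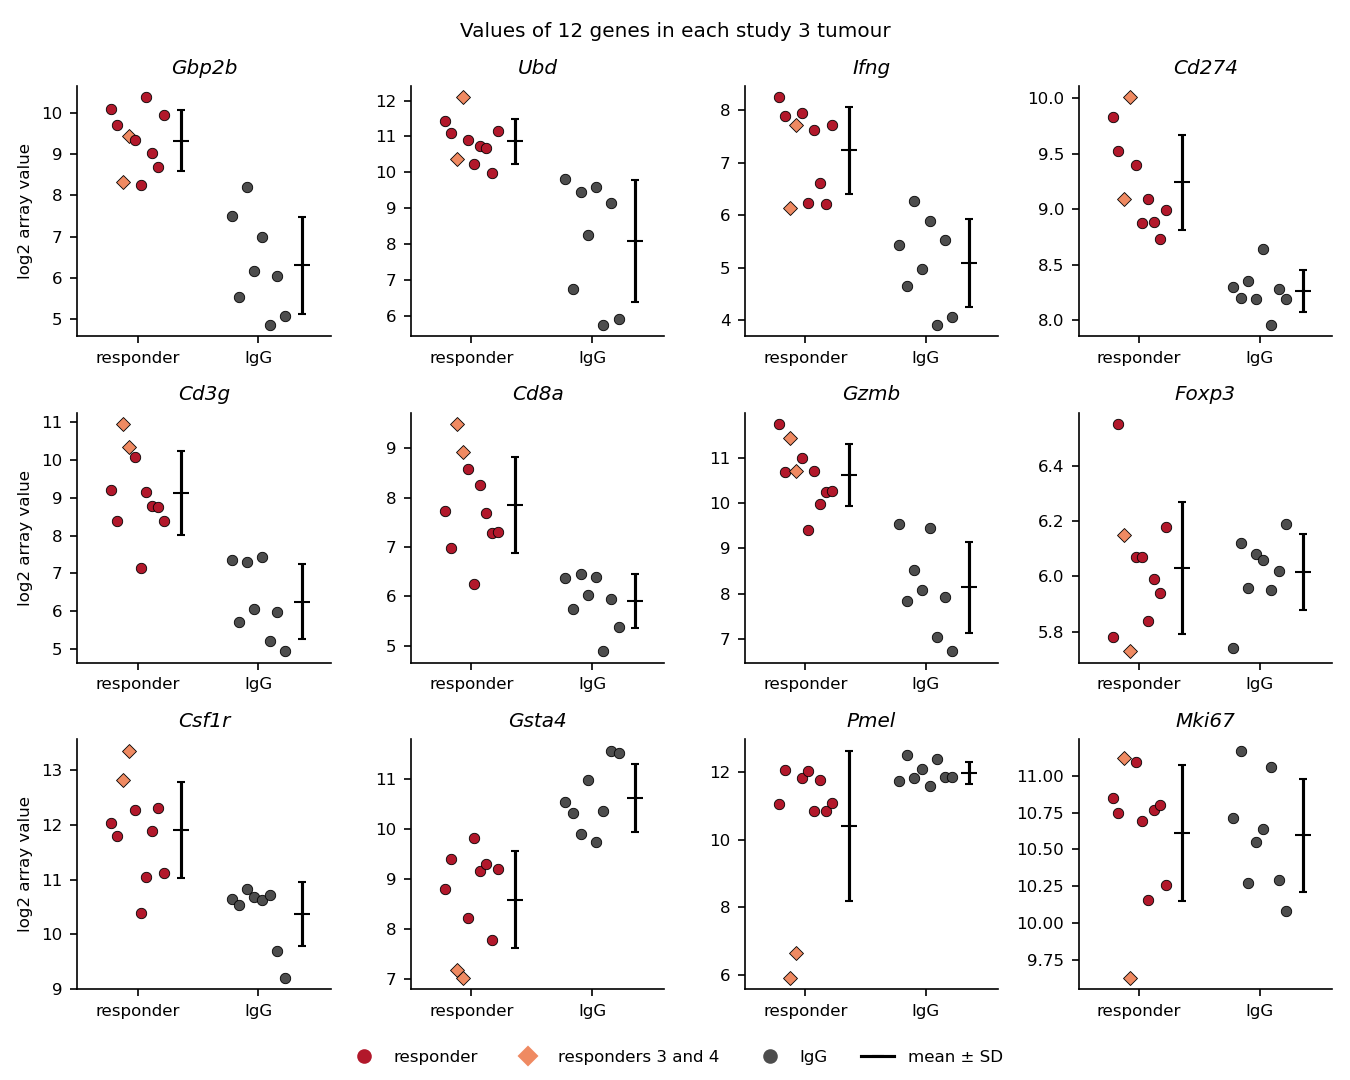
Log2 array values of 12 genes in each tumour, with responders on the left and IgG tumours on the right of each panel, and bars giving the mean and SD. For Gbp2b, Ubd and Cd274 the 10 responders lie above all 8 IgG tumours; for Foxp3 and Mki67 the groups overlap, and for Pmel responders 3 and 4 lie far below the rest.

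The target of the antibody and its receptor were both higher in responders. Cd274 measured 8.73, 9.09 and 10.01 in responders, against 7.96, 8.24 and 8.64 in IgG tumours, with no overlap. The rise was 0.98 ± 0.16, 1.97-fold (adjusted p = 0.00325). Pdcd1, which encodes PD-1, measured 5.76, 7.19 and 9.34 in responders and 4.68, 5.36 and 6.06 in IgG tumours, and 9 of 10 responders exceeded the highest IgG tumour. Its rise was 1.96 ± 0.38, 3.88-fold. Pdcd1lg2, the other ligand of PD-1, rose by 1.5 ± 0.29.

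Other inhibitory receptors of T cells rose beside them. In the list of 13 inhibitory receptors and ligands 10 rose (76.9%, against 4.62% of all genes), 0 fell and 3 did not pass. The median was 1.30 (11 rises and a median of 1.01 without responders 3 and 4). Havcr2 (TIM-3) rose by 1.72 ± 0.28, Ctla4 by 1.30 ± 0.25 and Lag3 by 1.18 ± 0.24. For Lag3 the lowest responder, at 6.00, stood above the highest IgG tumour, at 5.93. Btla did not pass (adjusted p = 0.119). Its value was 11.83 in responder 3, where B cell genes were also high, against a responder median of 6.69 and an IgG range of 4.88 to 6.44, and without responders 3 and 4 it passed at 0.97 (adjusted p = 0.00718).

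Foxp3, the factor that defines regulatory T cells, did not pass. It measured 5.73, 6.03 and 6.55 in responders and 5.74, 6.04 and 6.19 in IgG tumours, a log2 fold change of 0.01 ± 0.10 (adjusted p = 0.946). These values lay near the array medians of 5.78 to 5.88. Whether the Foxp3 signal follows the number of regulatory T cells in these tumours was not tested. Of 8 regulatory T cell markers 3 rose (37.5%, against 4.62% of all genes) and 0 fell, and the median was 0.28. The largest was Tnfrsf18 (GITR), a costimulatory receptor that activated T cells also carry, with a rise of 1.33 ± 0.25.

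Interferon gamma itself was among the genes that rose. Ifng measured 6.14, 7.67 and 8.25 in responders, against 3.91, 5.20 and 6.28 in IgG tumours. Responders 3, 6 and 9 lay at or below the highest IgG tumour, IgG 3, and the other 7 above it. The rise was 2.15 ± 0.37, 4.44-fold (adjusted p = 0.00336). Of the 13 measured genes for the cytokine, its receptor, its inducers' receptors and its signalling, 7 rose (53.8%, against 4.62% of all genes). The other 6 did not pass and 0 fell, and the median was 0.84. Il18r1 and Il12rb1, receptor chains through which interleukins 18 and 12 induce Ifng, rose by 2.07 ± 0.46 and 1.45 ± 0.32. Of the receptor's chains, Ifngr1 rose by 0.85 ± 0.20 and Ifngr2 was at 0.02 ± 0.10. Downstream, the transcription factor Irf1 rose by 1.02 ± 0.21 and the feedback inhibitor Socs1 by 0.84 ± 0.21, though Socs1 did not pass without IgG 6 or IgG 8 (adjusted p 0.0523 and 0.0593). Jak2, a kinase of the receptor, was at 0.48 ± 0.15 (adjusted p = 0.0761), and at 0.29 (adjusted p = 0.0431) without responders 3 and 4. With the 3 prime to 5 prime covariate 2 of the 13 genes passed.

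The gene with the largest rise of all was an interferon gamma target. Gbp2b, a guanylate-binding protein that acts against intracellular microbes, measured 8.25, 9.39 and 10.37 in responders, against 4.87, 6.10 and 8.20 in IgG tumours. No responder fell within the IgG range. The rise was 3.01 ± 0.42, 8.07-fold (adjusted p = 0.00284). Ubd, a ubiquitin-like modifier, measured 9.97, 10.81 and 12.09 in responders and 5.75, 8.71 and 9.82 in IgG tumours, also with no overlap, and rose by 2.78 ± 0.54, 6.86-fold. Gbp8 rose by 2.50 ± 0.39, and Igtp, a GTPase of the immunity-related family, by 1.0 ± 0.21. The promoters of the 3 interferon gamma targets with the lowest p that could be matched are shown. These genes all answer to interferon gamma, so their elements can be set side by side. Each promoter covers 250 bases before to 50 after the annotated start (RefSeq, GRCm38.p6, plus strand). Capitals mark matches on either strand to TTCNNNGAA, the gamma-activated site (GAS), or to GAAA followed after any 2 bases by GAAA, a core of the interferon-stimulated response element (ISRE).
Gbp2b, chr3:142594597-142594896: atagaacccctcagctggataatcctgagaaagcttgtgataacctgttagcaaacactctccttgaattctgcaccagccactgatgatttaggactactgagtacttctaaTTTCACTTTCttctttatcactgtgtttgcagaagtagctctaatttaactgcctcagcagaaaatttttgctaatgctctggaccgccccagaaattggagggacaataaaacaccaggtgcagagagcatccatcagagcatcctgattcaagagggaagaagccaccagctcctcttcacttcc
Ubd, chr17:37193642-37193941: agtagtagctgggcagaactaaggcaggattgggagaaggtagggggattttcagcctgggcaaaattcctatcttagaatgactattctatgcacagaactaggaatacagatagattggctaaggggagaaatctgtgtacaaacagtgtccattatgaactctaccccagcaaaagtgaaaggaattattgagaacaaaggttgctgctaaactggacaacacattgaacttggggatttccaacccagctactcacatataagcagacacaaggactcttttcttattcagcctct
Igtp, chr11:58199306-58199605: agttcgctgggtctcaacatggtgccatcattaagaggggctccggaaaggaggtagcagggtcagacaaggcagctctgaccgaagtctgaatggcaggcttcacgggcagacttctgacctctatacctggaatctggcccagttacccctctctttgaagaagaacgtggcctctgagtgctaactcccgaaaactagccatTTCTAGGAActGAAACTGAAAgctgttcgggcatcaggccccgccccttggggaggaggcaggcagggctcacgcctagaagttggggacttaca
The Gbp2b window held 1 ISRE core 137 bases before the start, the Igtp window a GAS match 45 and an ISRE core 34 bases before it, and the Ubd window neither. Of 32851 promoter windows of that length 8.3% held the GAS form and 3.44% the ISRE core. The ISRE core was found in 8 of 10 interferon gamma targets with a window and in 6 of 11 type I interferon stimulated genes. Cytotoxic effectors held it in 4 of 13 and MHC class I genes in 3 of 10. It was found in 58 of 653 higher genes (8.88%), against 13 of 205 lower genes (6.34%) and 524 of 14453 measured genes (3.63%). The GAS form was found in 3 of the 10 targets, in 9.8% of higher and 6.34% of lower genes, and in 8.57% of measured genes.

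The list of interferon gamma targets as a whole, which includes Gbp2b, Ubd, Gbp8 and Igtp, rose less evenly. Of its 18 measured genes 8 rose (44.4%, against 4.62% of all genes), 0 fell and 10 did not pass, with a median of 0.98. The list had 14 rises without responders 3 and 4, 5 without IgG 8 and 4 with the 3 prime to 5 prime covariate. Gbp2 rose by 1.11 ± 0.31, and Cxcl9, a chemokine for T cells, by 1.35 ± 0.37. Both calls lay near the threshold: of the 18 fits without 1 tumour, Gbp2 did not pass in 12 and Cxcl9 in 7 (adjusted p up to 0.0883 and 0.0734). Cxcl9 reached 13.20 in responder 4, against a responder median of 11.59 and a highest IgG value of 11.63. Its relative Cxcl10 was at 0.49 ± 0.27 (adjusted p = 0.262), and at 0.67 (adjusted p = 0.0255) without responders 3 and 4. Cxcl11 was at -1.06 ± 0.57 and Ido1, a tryptophan-degrading enzyme, at 1.15 ± 0.34, neither of which passed (adjusted p 0.247 and 0.0512). Without responders 3 and 4 Cxcl11 was at -0.28 and Ido1 at 0.80 (adjusted p 0.185 and 0.0577). The list mean was 9.24 in responder 3 and between 10.01 and 10.64 in the others, against 8.27 to 9.88 in IgG tumours.

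Most genes better known as targets of type I interferon did not pass. Of 16 measured 3 rose (18.8%, against 4.62% of all genes) and 0 fell, with a median of 0.21. Without responders 3 and 4, 7 rose with a median of 0.42. Without the 6 tumours rich in muscle or low in melanocyte transcripts (responders 3, 4, 5, 7 and 8 and IgG 3) 8 rose, with a median of 0.55, as did 8 of the 18 interferon gamma targets, with a median of 0.98. A difference between these lists was not tested. Oas3, an antiviral nucleotide synthetase, rose by 1.03 ± 0.21 (adjusted p = 0.00615). Irf7, a transcription factor of the pathway, rose by 0.66 ± 0.17 and Mx1, an antiviral GTPase, by 0.57 ± 0.16; they did not pass in 7 and 12 of the 18 fits without 1 tumour (adjusted p up to 0.0737 and 0.0949). With the 3 prime to 5 prime covariate 1 of the 16 genes passed.

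Antigen presentation genes rose in part, with the larger median in the class II list. Of 9 class II genes 6 rose (66.7%, against 4.62% of all genes) and 0 fell, with a median of 1.51. Without responders 3 and 4, 8 rose. The list mean ran from 9.44 to 12.63 in responders, highest in responder 3, and from 8.15 to 9.98 in IgG tumours. A difference between class I and class II was not tested. H2-Ab1, a chain of the class II molecule, measured 11.10, 12.45 and 13.46 in responders, against 9.20, 10.42 and 11.84 in IgG tumours. Its rise was 1.92 ± 0.34, 3.77-fold (adjusted p = 0.00381), and all 3 of its probe sets passed. H2-DMa, which helps load peptide, rose by 1.92 ± 0.32, and Cd74, the invariant chain, by 1.89 ± 0.39. Ciita, the master regulator of class II genes and a member of the interferon gamma list, rose by 1.02 ± 0.25 (adjusted p = 0.0205, and 0.0521 without IgG 8).

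In the class I pathway the peptide transporters rose and the abundant heavy chain and light chain did not pass. Of 13 genes 7 rose (53.8%, against 4.62% of all genes), 0 fell and 6 did not pass, with a median of 0.53. Without responders 3 and 4 the rises numbered 10, without IgG 6 they numbered 4, and with the 3 prime to 5 prime covariate 2. The list mean ran from 11.33 to 11.80 in responders and from 10.34 to 11.29 in IgG tumours. Tap2 rose by 1.08 ± 0.23 and Tapbpl, a peptide editor, by 1.07 ± 0.20. Tap1 measured 10.34, 10.70 and 11.21 in responders and 8.82, 9.72 and 10.28 in IgG tumours, with no overlap and a rise of 1.05 ± 0.20. That call belongs to 1 of 4 Tap1 probe sets, and the mean over all of them gave 0.24 (adjusted p = 0.0516). H2-K1, a heavy chain, was at 0.33 ± 0.10 (adjusted p = 0.0609), and B2m, the light chain, at 0.08 ± 0.07 (adjusted p = 0.504). Psmb9, an immunoproteasome subunit, was at 0.56 ± 0.19 and passed without responders 3 and 4, at 0.70 (adjusted p = 0.0145).

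Chemokines that act on T cells and monocytes rose in part. Of 24 measured chemokines and receptors 9 rose (37.5%, against 4.62% of all genes), 0 fell and 15 did not pass. The median was 0.84, and the log2 fold changes ran from -0.26 to 2.46. With the 3 prime to 5 prime covariate 5 rose, as did 291 of all 18194 genes. Cxcr6, through which T cells settle in tissues, measured 7.30, 8.83 and 10.06 in responders, against 5.25, 6.20 and 7.67 in IgG tumours, and rose by 2.46 ± 0.43, 5.52-fold. Cxcl16, its ligand, rose by 0.92 ± 0.19. Cxcr3, the receptor for Cxcl9, rose by 1.29 ± 0.30. Ccl3 and Ccl4, chemokines made by activated T cells and macrophages, rose by 1.69 ± 0.25 and 1.35 ± 0.19, with 9 of 10 responders above every IgG tumour for each. Ccl8, a monocyte chemokine, measured 12.02, 13.02 and 13.51 in responders and 10.36, 11.62 and 12.08 in IgG tumours, a rise of 1.48 ± 0.22. Cxcl12, a stromal chemokine, rose by 2.22 ± 0.38 (2 of its 3 probe sets passed).

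**Figure D4:**
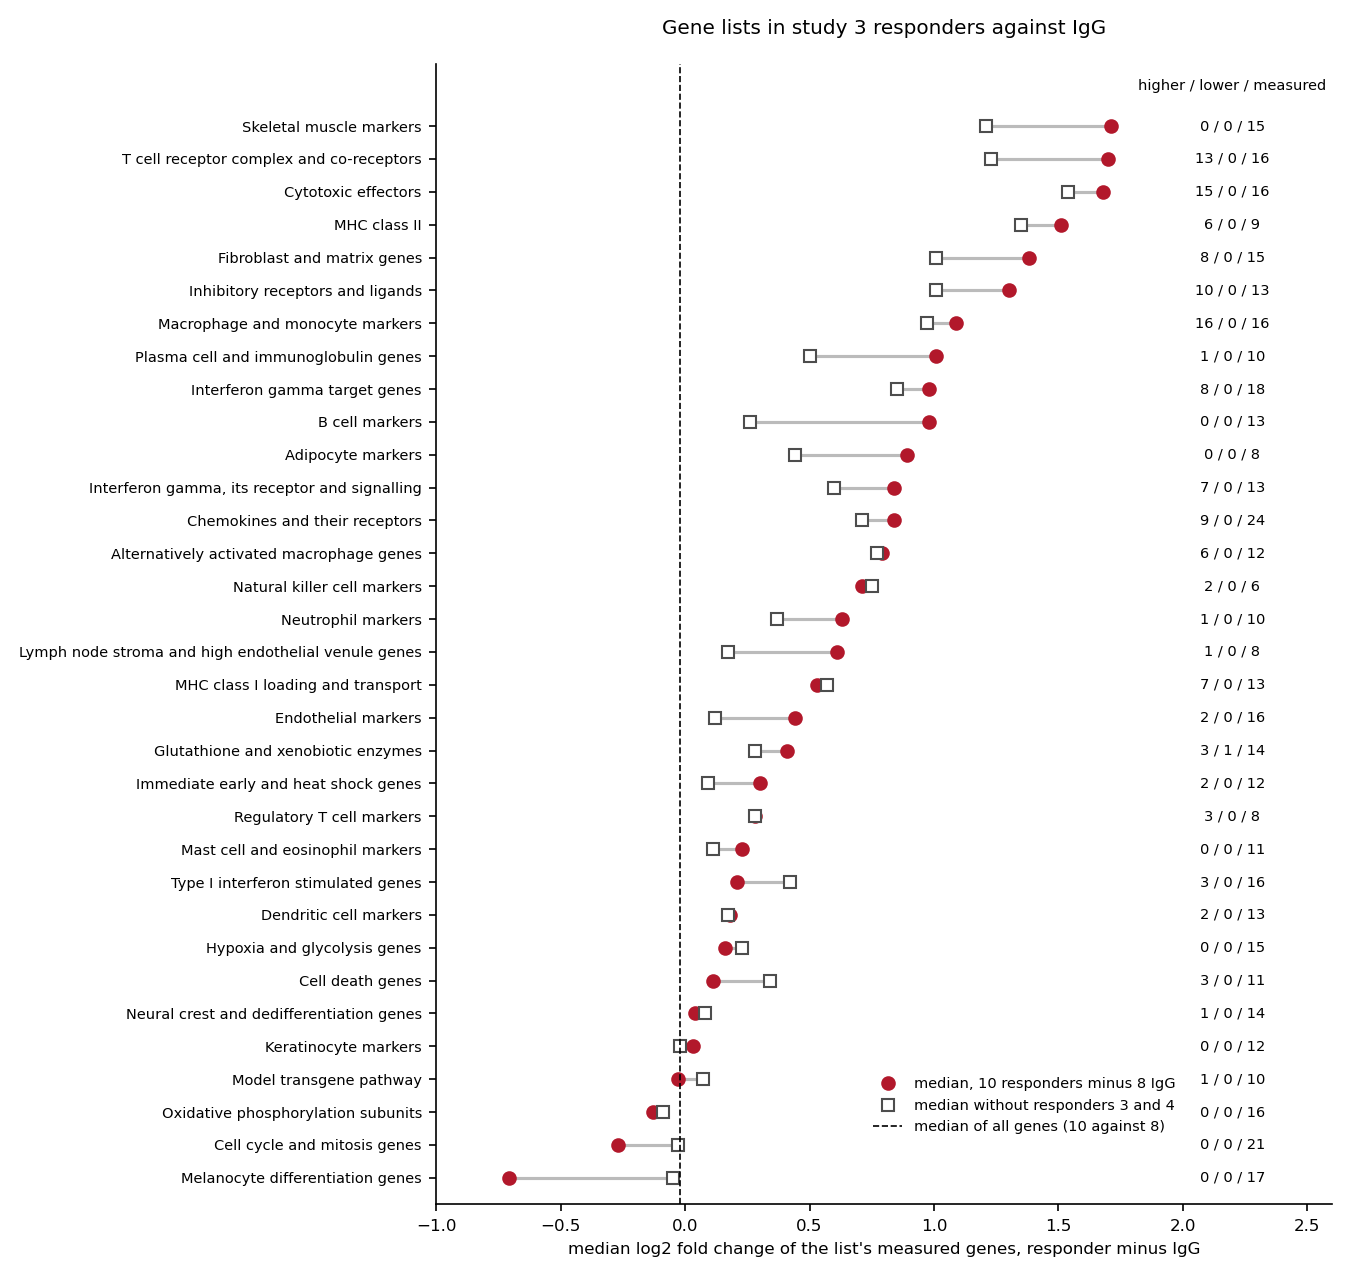
Median log2 fold change of the measured genes of 33 lists, responder minus IgG, for all 18 tumours (circles) and without responders 3 and 4 (squares); the numbers on the right give how many genes were higher, lower and measured. The T cell list lies at 1.70 with 13 of 16 genes higher, whereas the muscle list lies at 1.71 with 0 of 15 higher, and the melanocyte list moves to -0.05 without responders 3 and 4, against -0.71 with them.

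Every measured macrophage and monocyte gene passed upward. All 16 rose (100%, against 4.62% of all genes), with a median of 1.09. Without responders 3 and 4, 16 also rose, with a median of 0.97. Of these 16, 10 passed with the 3 prime to 5 prime covariate and 11 without the 6 tumours rich in muscle or low in melanocyte transcripts. Csf1r, the receptor for the growth factor CSF1, measured 10.38, 11.95 and 13.36 in responders, against 9.20, 10.64 and 10.83 in IgG tumours. Responders 3 and 4 were the highest and responder 6 alone lay within the IgG range. The rise was 1.53 ± 0.34, 2.89-fold (adjusted p = 0.0116), but did not pass with the covariate (adjusted p = 0.0657). Adgre1 (F4/80), the classic mouse macrophage marker, rose by 1.45 ± 0.26, and Fcgr4, a receptor for the Fc part of IgG, by 1.5 ± 0.26. C1qb, a complement chain made by macrophages, rose by 1.17 ± 0.21, and Mertk, which takes up dying cells, by 1.19 ± 0.26. Outside the lists, Slamf8, a surface protein of myeloid cells, rose by 2.51 ± 0.41, 5.69-fold, with no overlap between groups. Cd5l, a secreted macrophage protein, rose by 2.39 ± 0.50, 5.23-fold, and did not pass without the 6 tumours named above (1.76, adjusted p = 0.129).

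Of 12 genes tied to alternative activation of macrophages 6 rose (50%, against 4.62% of all genes) and 0 fell, with a median of 0.79. But 2 rose without IgG 8, 2 with the 3 prime to 5 prime covariate and 1 without the 6 muscle-rich or melanocyte-poor tumours. Of all 18194 genes 543, 291 and 652 were higher in those fits. Without the 6 tumours the median was again 0.79. Il10, an inhibitory cytokine, measured 4.87, 5.46 and 6.15 in responders, against 4.30, 4.67 and 4.84 in IgG tumours, with no overlap and a rise of 0.85 ± 0.17. Mrc1, the mannose receptor, rose by 1.10 ± 0.28 (adjusted p = 0.0248, and 0.0569 without IgG 8). Arg1, the arginase of these cells, did not pass, at 0.91 ± 0.43 (adjusted p = 0.197).

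Dendritic cell and granulocyte genes mostly did not pass. Of 13 dendritic cell markers 2 rose (15.4%, against 4.62% of all genes) and 0 fell, with a median of 0.18. Irf8, a transcription factor of dendritic cells and monocytes, measured 9.82, 10.46 and 11.41 in responders and 7.15, 8.55 and 9.67 in IgG tumours, without overlap, and rose by 1.82 ± 0.32. Among 10 neutrophil markers 1 rose (10%) and among 11 mast cell and eosinophil markers 0, with medians of 0.63 and 0.23.

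The mean of the B cell genes was highest in responder 3, at 10.39, followed by responder 4 at 6.53, against 5.42 to 6.02 in IgG tumours. None of 13 B cell markers passed (0 higher, 0 lower), although their median was 0.98. Ms4a1, which encodes CD20, was 12.65 in responder 3, against a responder median of 5.73 and values of 4.47, 5.05 and 7.17 in IgG tumours. Without responders 3 and 4 the median was 0.26 and 3 genes passed upward. Of 10 plasma cell and immunoglobulin genes Prdm1 alone rose, by 1.61 ± 0.37 (10% of the list, against 4.62% of all genes). Prdm1 is also a regulator of effector T cells. Jchain, the joining chain of secreted antibody, measured 5.95, 8.43 and 13.62 in responders and 5.66, 7.58 and 10.45 in IgG tumours, a log2 fold change of 1.74 ± 0.84 that did not pass (adjusted p = 0.204). Ltb, a cytokine of lymphocytes that organises lymphoid tissue, rose by 2.19 ± 0.49, the only rise among 8 lymph node genes (12.5%). Its highest responder value was 12.36 and its highest IgG value 7.89.

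Part of the connective tissue genes rose in responders. Of 15 fibroblast and matrix genes 8 rose (53.3%, against 4.62% of all genes) and 0 fell, with a median of 1.38. The same number rose without responders 3 and 4, with a median of 1.01. The count was 2 without the 6 muscle-rich or melanocyte-poor tumours, at a median of 0.97, 0 with the 3 prime to 5 prime covariate, and 5 without IgG 1. The part of muscle content and RNA quality in the result was not tested. Dcn, the proteoglycan decorin, measured 9.89, 11.59 and 12.95 in responders, against 7.87, 10.01 and 10.80 in IgG tumours, a rise of 1.84 ± 0.40 (1 of its 2 probe sets passed). Lum, a related proteoglycan, rose by 1.80 ± 0.41, Pdgfra, a receptor of fibroblasts, by 1.62 ± 0.39 (1 of 3 probe sets), and Col3a1, a fibrillar collagen, by 1.13 ± 0.26. Col1a1 was at 1.42 ± 0.53 and did not pass (adjusted p = 0.114). Scara5, a ferritin receptor found on stromal cells, measured 7.03, 8.35 and 9.43 in responders and 5.00, 5.89 and 7.02 in IgG tumours. Its groups did not overlap, although the closest values were 0.01 apart, and its rise of 2.49 ± 0.33 was 5.61-fold (1 of its 2 probe sets passed).

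Most vessel genes did not pass. Of 16 endothelial markers 2 rose (12.5%, against 4.62% of all genes) and 0 fell, with a median of 0.44 (0.12 without responders 3 and 4). The 2 were Vcam1, at 1.83 ± 0.35, and Icam1, at 0.65 ± 0.13, adhesion molecules that cytokines induce on endothelium and other cells. The adhesion molecules Sele and Selp (E- and P-selectin) were at -0.09 and 0.63 and did not pass (adjusted p 0.489 and 0.17). Pecam1 (CD31), a general endothelial marker, was at 1.0 ± 0.38 and did not pass (adjusted p = 0.119).

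Muscle and fat transcripts varied widely within the responders, and none passed between the groups. Of 15 skeletal muscle genes 0 passed in either direction, with a median of 1.71. Acta1, skeletal actin, measured 5.15, 7.67 and 14.26 in responders, against 5.48, 5.85 and 11.34 in IgG tumours, and Myh4, a myosin heavy chain, reached 13.08 in the highest responder and 7.37 in the highest IgG tumour. None of 8 adipocyte genes passed. Adipoq, the fat cell hormone adiponectin, measured 5.43, 10.92 and 13.32 in responders and 6.39, 9.13 and 11.46 in IgG tumours. Likewise 0 of 12 keratinocyte genes passed, with a median of 0.03.

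No melanocyte gene passed between responders and IgG tumours, and their median differed with and without responders 3 and 4. Of 17 measured 0 rose and 0 fell, with a median of -0.71 over all tumours and -0.05 without those 2. In the fit of all 90 arrays 7 were lower, as were 1488 of all 18194 genes. Against non-responders 2 were lower, as were 8.36% of all genes. At most 1 was lower in a fit without 1 tumour. Pmel, a structural protein of melanosomes, measured 5.91, 11.08 and 12.05 in responders, against 11.59, 11.85 and 12.50 in IgG tumours. The 2 lowest values were 5.91 in responder 3 and 6.65 in responder 4, and the next responder stood at 10.85. Its log2 fold change was -1.57 ± 0.74 (adjusted p = 0.198), and -0.54 (adjusted p = 0.104) without them. Mlana (Melan-A) was at -0.82 ± 0.64, Dct, an enzyme of melanin synthesis, at -0.71 ± 0.51, and Sox10, a transcription factor of the lineage, at -0.83 ± 0.56, and without responders 3 and 4 at 0.05, 0.01 and -0.05. Of 14 neural crest and dedifferentiation genes Axl, a receptor kinase also present in the macrophage list, rose by 0.73 ± 0.17 and 0 fell. This 1 rise is 7.14% of the list, against 4.62% of all genes.

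Proliferation genes and most genes of the engineered pathway did not pass. None of 21 cell cycle genes passed, with a median of -0.27 (-0.03 without responders 3 and 4). Mki67, the proliferation marker Ki-67, measured 9.63, 10.76 and 11.12 in responders and 10.08, 10.59 and 11.17 in IgG tumours, a log2 fold change of 0.02 ± 0.19. Hgf measured 5.63, 10.98 and 11.19 in responders, against 10.77, 11.21 and 12.06 in IgG tumours, a log2 fold change of -1.27 ± 0.72 that did not pass (adjusted p = 0.274). Its probe sets cannot tell the transgene from the mouse gene. Met, the HGF receptor, was at -0.72 ± 0.50, Cdk4 at -0.50 ± 0.22 and Ccnd1, a cyclin partner of CDK4, at -0.04 ± 0.22. Without responders 3 and 4 Hgf was at -0.26, Met at -0.02, Cdk4 at -0.21 and Ccnd1 at 0.15, and none of the 4 passed. Of the 10 genes of the pathway Cdk6, a relative of CDK4 that T cells also express, rose by 0.95 ± 0.24 (adjusted p = 0.0255). Cdk6 did not pass without IgG 7 or IgG 8 (adjusted p 0.0615 and 0.0603). This 1 rise is 10% of the list, against 4.62% of all genes.

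Some genes of cell death, stress and detoxification passed. In the cell death, immediate early and glutathione lists 27.3%, 16.7% and 21.4% were higher, against 4.62% of all genes. Of 11 cell death genes Fas, a death receptor, rose by 0.89 ± 0.18 with no overlap between groups, and Gsdmd, a pore former of pyroptosis, by 0.59 ± 0.13; Bak1 also rose and 0 fell. Among 12 immediate early and heat shock genes Atf3 and Jun rose, by 0.82 ± 0.22 and 1.0 ± 0.28, and did not pass in 8 and 11 of the 18 fits without 1 tumour (adjusted p up to 0.0725 and 0.0995). None of 15 hypoxia and glycolysis genes and none of 16 oxidative phosphorylation subunits passed, with medians of 0.16 and -0.13. Of 14 glutathione and xenobiotic enzymes Mgst1, Hmox1 and Gstt1 rose, by 1.17 ± 0.26, 0.87 ± 0.23 and 0.98 ± 0.27, and Gsta4 fell; Hmox1 and Gstt1 did not pass in 7 and 8 of the fits without 1 tumour (adjusted p up to 0.0779 and 0.0744).

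That fall of Gsta4 was the deepest of the 12 falls taken by rule. Gsta4, a glutathione transferase that clears products of lipid peroxidation, measured 7.02, 8.98 and 9.81 in responders, against 9.74, 10.44 and 11.56 in IgG tumours. Responder 6 alone lay within the IgG range, and responders 3 and 4 were the lowest. The log2 fold change was -2.03 ± 0.38, which is 4.07-fold lower (adjusted p = 0.00452), and -1.65 without responders 3 and 4. Csrnp3, a nuclear protein, fell by 1.97 ± 0.46 and Cracd, a regulator of the actin cytoskeleton, by 1.56 ± 0.35, each with 1 probe set passing of 3 and 5. Crabp2, a retinoic acid carrier, measured 4.99, 6.90 and 7.48 in responders and 6.67, 8.02 and 9.41 in IgG tumours, and fell by 1.54 ± 0.35. Tnfrsf19, a receptor of the tumour necrosis factor family, measured 4.65, 5.93 and 6.68 in responders and 6.62, 7.12 and 7.49 in IgG tumours, and fell by 1.20 ± 0.19 (adjusted p = 0.00325, 1 of 3 probe sets). The uncharacterised transcript 1810065E05Rik fell by 1.20 ± 0.23, and Sucnr1, the succinate receptor, by 1.17 ± 0.29 (adjusted p = 0.0214, and 0.052 without IgG 7).

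Falls of 5 other genes lay nearer the threshold. The anion transporter Slc26a7 fell by 1.77 ± 0.49, Ugt8a, an enzyme of galactolipid synthesis, by 1.42 ± 0.39, the transcription factor Arnt2 by 1.31 ± 0.37, Cttnbp2, a cortactin-binding protein, by 1.22 ± 0.34, and Catsperd, a subunit of a sperm calcium channel, by 1.21 ± 0.34. They did not pass in 9, 10, 9, 7 and 10 of the 18 fits without 1 tumour, with adjusted p-values up to 0.0818, 0.0821, 0.0819, 0.0803 and 0.0863. None of these 5 passed with the 3 prime to 5 prime covariate (adjusted p 0.196, 0.161, 0.208, 0.231 and 0.194).

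The 5 largest rises and 5 largest falls that passed with all 18 tumours but not without responders 3 and 4 were of several kinds. Hpgd, which degrades prostaglandins, rose by 1.55 ± 0.45, Pdpn (podoplanin) by 1.22 ± 0.36, Rarres2, the chemokine-like protein chemerin, by 1.10 ± 0.32, Slfn5 by 1.06 ± 0.29 and Adamts5, a matrix protease, by 0.77 ± 0.22. Azgp1, a lipid-mobilising glycoprotein, fell by 1.39 ± 0.38, Spata1 by 0.77 ± 0.22, Zfp248 by 0.76 ± 0.22, 2310047K21Rik by 0.76 ± 0.22 and Zbtb8a by 0.69 ± 0.20. Without responders 3 and 4 their log2 fold changes lay between 0.58 and 1.16 for the rises and between -1.23 and -0.53 for the falls, and their adjusted p-values between 0.0513 and 0.08. Each of these 10 calls was also lost in 6 to 15 of the fits without 1 tumour.

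Few genes passed between tumours that grew under the same antibody and IgG tumours, a comparison that shares its controls with that of the responders. In non-responders against IgG 1 gene was higher (0.0055%) and 0 lower by limma, with 2389 genes at an unadjusted p under 0.05, and 126 genes passed when all 90 arrays were fitted. The gene is Dleu7, which was named after its values were seen, at 0.62 ± 0.09 (adjusted p = 0.0126). Cd3g was at 0.13 in non-responders against IgG (adjusted p = 0.861), Gbp2b at 0.19 (adjusted p = 0.826), Ifng at 0.13 (adjusted p = 0.849) and Gsta4 at 0.16 (adjusted p = 0.702). Set against these non-responders, whose animal numbers lie in the same block, responders had 1620 genes higher (8.9%) and 1521 lower (8.36%). The responder arrays are the same in both comparisons. There Cd3g was higher in responders by 2.73, Gbp2b by 2.82, Ifng by 2.02 and Cd274 by 1.06 (adjusted p 0.000602, 0.000192, 0.00134 and 0.000458), and Gsta4 was at -2.19 (adjusted p = 0.00048). Of the 12 falls, Cracd (-0.90), Arnt2 (-0.83) and Cttnbp2 (-0.81) did not pass against non-responders (adjusted p 0.0562, 0.112 and 0.079), and the other 9 did.

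The responder against IgG difference was also measured in study 2, in other tumours, where 2725 genes (15%) were higher and 4029 (22.1%) lower. Of the 1102 genes called in study 3, 938 (85.1%) had the same sign in study 2, against 63.9% of all genes, and 359 (32.6%) also passed there. The 841 rises had a median of 1.10 in study 3 and 0.36 in study 2, and these genes were chosen by their study 3 values. An interaction test passed for 626 genes (3.44%), 340 with the higher value in study 3 (1.87%) and 286 with the lower (1.57%), and for 374 without responders 3 and 4. Of the 1102 genes 129 (11.7%) were among the 626. None of the T cell, interferon gamma and cytotoxic genes in the list of 12 rises passed this test: Cd3g was at 2.86 in study 3 and 1.82 in study 2, Gbp2b at 3.01 and 1.76, and Gzmb at 2.48 and 1.06 (adjusted p of the difference 0.293, 0.261 and 0.155).

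Single genes of several kinds differed between the studies. Of the 15 fibroblast and matrix genes 0 passed this test, and of the 12 genes of alternatively activated macrophages 3 did, all with the higher value in study 3. In study 2 alone 0 of the 15 fibroblast genes were higher in responders, at a median of 0.07. Of the 12 alternative activation genes 0 were higher and 1 lower there, at a median of -0.27. Of the 16 macrophage and monocyte genes 3 were higher in study 2, at a median of 0.56, and 0 passed the interaction test. For scale, study 2 responders showed a rise in 15% and a fall in 22.1% of the 18194 genes. The macrophage count of 3 in 16 lies near the first share. The count of 1 lower gene in 12 for alternative activation lies under the second. The T cell list had 13 of 16 higher and 1 lower in study 2, at a median of 0.85. Scara5 was at 2.49 in study 3 and -0.06 in study 2, a difference of 2.55 (adjusted p = 0.0225). Retnla, a secreted protein of alternatively activated macrophages, was at 1.38 and -0.68, a difference of 2.06 (adjusted p = 0.0222), although its rise in study 3 did not pass in 15 of the 18 fits without 1 tumour. Tnxb, a matrix glycoprotein, differed by 1.84, Pcolce2, a collagen processing factor, by 1.81, and Clec4n (dectin-2), a fungal receptor of myeloid cells, by 1.78. Gzma, at 1.58 and -0.13, differed by 1.70 (adjusted p = 0.0438). In the other direction, Csrnp3 was at -1.97 in study 3 and -0.23 in study 2, a difference of -1.75, and Cracd at -1.56 and -0.03, a difference of -1.53. Crabp2, Arnt2, Cttnbp2 and Tnfrsf19 also fell further in study 3, with differences of -1.25, -1.31, -1.26 and -1.0. Tex13b, Megf10 and Mlph, which did not pass in study 3, differed by -1.84, -1.54 and -1.51. Without study 3 responders 3 and 4 the difference did not pass for Tnxb, Clec4n and Gzma (adjusted p 0.0942, 0.0963 and 0.068), nor for Csrnp3, Cracd, Crabp2, Arnt2, Cttnbp2 and Mlph (adjusted p 0.0558, 0.0566, 0.0882, 0.0863, 0.0896 and 0.068). It passed for Scara5, Retnla, Pcolce2, Tnfrsf19, Tex13b and Megf10 in that fit (adjusted p 0.0429, 0.022, 0.0404, 0.0485, 0.0348 and 0.0412).

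**Figure D5:**
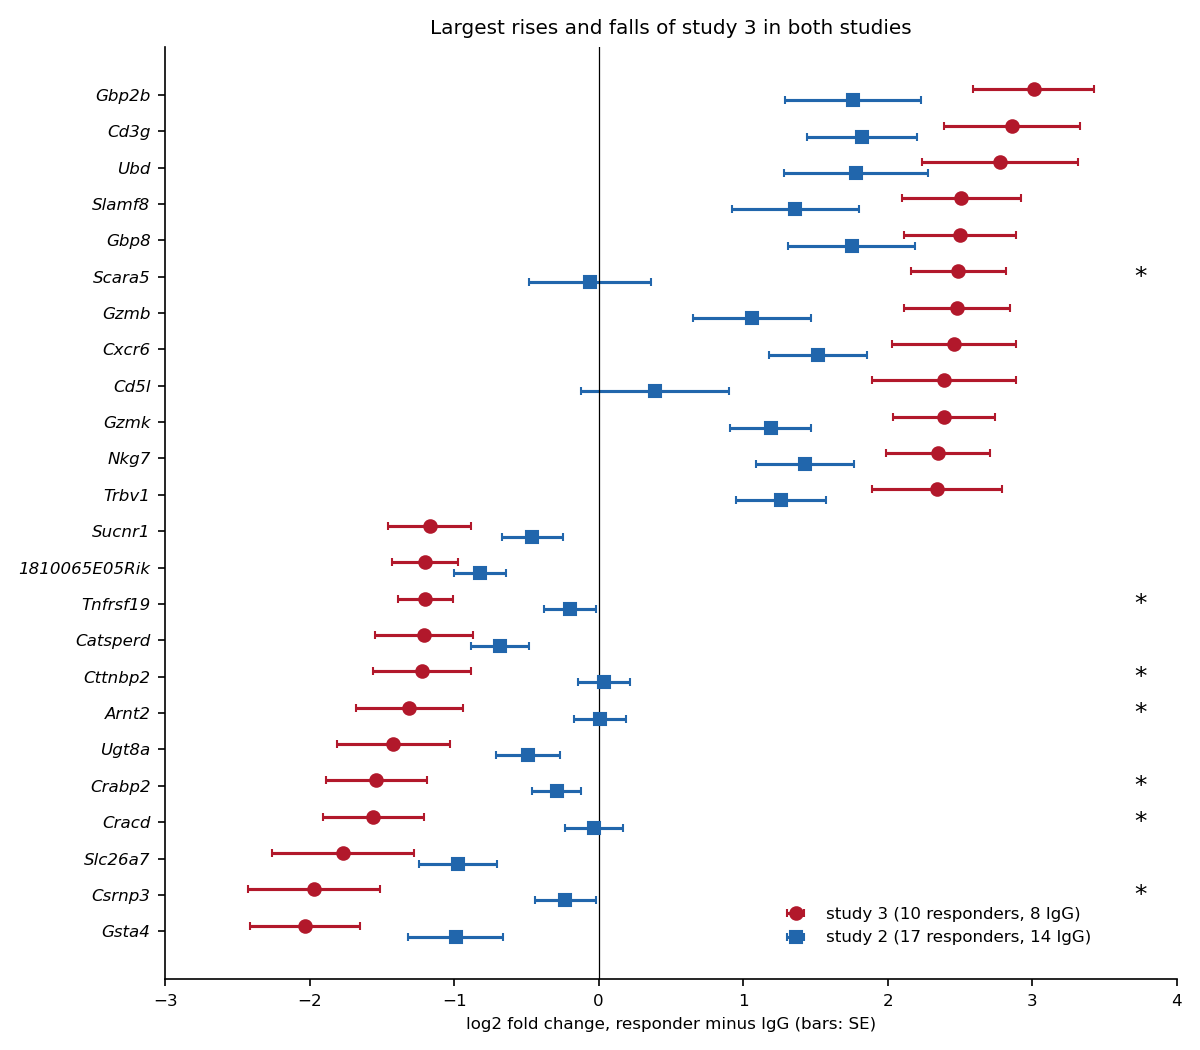
Log2 fold change of the 12 largest rises and 12 largest falls of study 3, responder minus IgG, in study 3 (circles) and study 2 (squares), with bars giving the SE and asterisks where the difference between the studies passed. Scara5 lies at 2.49 in study 3 and -0.06 in study 2, while Gsta4 lies at -2.03 and -0.99 with no asterisk.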

How the data were processed

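Whole tumours were measured on arrays of 45101 probe sets from 800 ng of total RNA, per the labels' protocols. The deposited values are log2 signals, and the submitters' processing notes name RMA and limma without versions. No sample column was left unused.

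Probe sets were named from the platform annotation: 34958 had 1 symbol, 932 several and 9211 none. The single-symbol probe set with the highest mean over the 90 arrays stood for each of 18194 genes. Groups came from the sample descriptions. Replicate numbers follow accession order and only name tumours. Each p-value set a difference between group means against the spread between tumours, pooled over the groups. The median SD of a gene was 0.27 in responders and 0.18 in IgG tumours. The number of arrays limits the precision. The test was limma 3.58.1 in R 4.3.3 with Benjamini-Hochberg adjustment over all genes at a threshold of 0.05, on the 18 tumours, and the difference between studies was an interaction term. Scripts were tested on simulated data. Single probe sets were judged in a fit over all probe sets.

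The members and the 33 gene lists were chosen with earlier results of these data known, so no list is independent evidence. The named genes were the 12 largest rises and 12 largest falls that passed with and without responders 3 and 4, the 5 and 5 largest that passed only with them, list members by p, 11 preset genes and the 5 largest study differences each way. Of 483 list entries 441 were measured. Promoters of 2 melanocyte genes were left out because no melanocyte gene passed.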

Additional observations from a re-analysis of the deposited data

Results flagged for a closer look

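Several tumours lay apart from their group by Dixon's criterion at the 95% level, which chance meets in about 1 of 20 groups. The number of groups examined is not given here, so the flags cannot be set against that share. The melanocyte means of responders 3 and 4 (7.08 and 7.02) were not flagged. Of the responders, replicate 3 was low for Ugt8a (3.08), Tnfrsf19 (4.65), Megf10 (4.33), Cxcl10 (8.89) and Gbp2 (11.21) and high for Btla (11.83) and Ms4a1 (12.65). Its list means were low for interferon gamma targets (9.24), hypoxia and glycolysis genes (9.54) and oxidative phosphorylation subunits (11.80). They were high for MHC class II (12.63), dendritic cell (8.49), mast cell and eosinophil (5.75), B cell (10.39), plasma cell (10.85), lymph node (8.40) and keratinocyte (5.50) genes. Responder replicate 4 was low for Sucnr1 (3.79), Retnla (7.68) and the cell cycle list mean (8.28). It was high for Ifngr2 (10.08), Cxcl9 (13.20), Atf3 (10.77), Jun (11.26), Pdpn (11.46), Clec4n (11.40) and the immediate early list mean (10.65). Responder replicate 6 was low for Ccl8 (12.02).

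Of the IgG tumours, replicate 3 was apart for Cxcl16 (8.91), Ms4a1 (7.17), Acta1 (11.34) and Myh4 (7.37) and for the means of B cell (6.02), plasma cell (7.77) and muscle (8.48) genes. The other IgG values were Mlana in replicate 6 (9.21), Ido1 in replicate 5 (6.31), Ccl8 (10.36) and Tnxb (4.79) in replicate 8, and the keratinocyte mean in replicate 2 (4.86).

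The responder minus IgG log2 fold change differed between study 3 and study 2 by an interaction test for 17 named genes. It was higher in study 3 for Scara5 (difference 2.55), Retnla (2.06), Tnxb (1.84), Pcolce2 (1.81), Clec4n (1.78), Gzma (1.70), Fas (0.75) and Zap70 (0.38). It was lower in study 3 for Tex13b (-1.84), Csrnp3 (-1.75), Megf10 (-1.54), Cracd (-1.53), Mlph (-1.51), Arnt2 (-1.31), Cttnbp2 (-1.26), Crabp2 (-1.25) and Tnfrsf19 (-1.0).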

How the results depend on the processing

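The 1102 genes kept their sign under every setting in which each was tested, with 1 exception when probe sets were averaged (1101). They were chosen in the same tumours, so a change of sign was unlikely from the start. Their number depended on the setting. It was 3162 with all 90 arrays in the fit, 1709 with the 37 arrays of study 3, 2943 with PBS and IgG pooled, 1803 with array weights and 1696 with a separate spread per group. It was 299 with 88 arrays (all but responders 3 and 4), 336 with the 3 prime to 5 prime covariate, 297 with that covariate and without responder 2 (a setting chosen after seeing the data), and 374 at a threshold of 0.01. Without each tumour in turn the count ran from 647 to 1580. Without the 6 tumours rich in muscle or low in melanocyte transcripts, also chosen after seeing the data, it was 800. The share of higher genes was 76.3%, against 45.2% after median centring, 62.3% after quantile normalization and 52.9% with all 90 arrays. Responders against non-responders gave 3141 genes, 6680 with all 90 arrays and 2361 without responders 3 and 4. Non-responders against IgG gave 1 gene, and 126 with all 90 arrays. The difference between studies gave 626 genes, 310 with all 90 arrays and 374 without responders 3 and 4. The cause of these changes was not tested. No paired analysis was possible because replicate numbers follow accession order and pair no tumours. Genes near the lower end of the scale, such as Tyr, could not show a fall. Those near the upper end, such as B2m and Dct, may have had little room to show a rise.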
